A study of Homo sapiens with 24 samples.

Results

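The genes described here are the G1/S cyclins CCND1, CCND2, CCND3, CCNE1 and CCNE2, the cyclin-dependent kinases (CDKs) CDK2, CDK4 and CDK6 and the CDK inhibitors CDKN1A and CDKN1B, 10 of the 54583 genes in the count table. They were picked by symbol as the core of the switch from G1 to S phase, and CCNE2 was singled out for its large shift onto polysomes with cercosporamide. PANC-1 cells, a human line that originated in a pancreatic ductal carcinoma, were exposed for 6 h to DMSO as vehicle, to 40 µM CID661578 or to 5 µM cercosporamide, the first a compound that the study ties to the eIF4E kinase MNK2 as its target and the second an inhibitor of that kinase. Each treatment had 4 replicate plates, and from each of the 12 plates total cytosolic RNA and RNA bound to polysomes (more than 3 ribosomes) were sequenced, giving 24 libraries in 6 groups of 4. All plates come from 1 cell line. The labels name RPMI as the medium and the methods DMEM.

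The D-type cyclins bind CDK4 and CDK6, and these kinases begin the phosphorylation of the retinoblastoma protein RB1 in G1. The E-type cyclins then activate CDK2, which completes it, releases the E2F factors and starts DNA replication. CDKN1A (p21) and CDKN1B (p27) bind and inhibit cyclin E-CDK2. CCND1 is a commonly cited example of an mRNA whose expression depends on the cap-binding protein eIF4E, the substrate of the MNK kinases. The paper reports that CID661578 left the kinase activity of MNK2 unchanged in vitro. In PANC-1 it found more phosphorylated eIF4E with either compound, with cercosporamide at a higher dose than here.

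Values are CPM, read counts scaled to the normalized size of each library. Translational efficiency (TE) stands for polysome-associated relative to total RNA, and a TE change is the log2 difference of that ratio from DMSO, given with its standard error (SE). A gene was called in TE at an adjusted p below 0.15 with a change above 1.2-fold, and in a single fraction at an adjusted p below 0.15. All adjusted p-values are Benjamini-Hochberg values of edgeR's quasi-likelihood test over the 12058 genes that had reads in every library. Of the 10 genes, 8 met that condition. CCND2 had no read in the total library of cercosporamide replicate 2, and CDKN1B none in the polysome library of cercosporamide replicate 4, so both are outside the main tests, and a fit without the filter is given beside their values. Because CCNE2 was chosen for its change with cercosporamide, its values are given as a description without a test, also for CID661578, which shares the DMSO libraries. The counts of genes called are therefore over the 7 others, CCND1, CCND3, CCNE1, CDK2, CDK4, CDK6 and CDKN1A. Nothing in the labels ties a replicate number to a separate thaw or passage of the cells, so that p-values measure the spread between these plates.

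The polysome library of cercosporamide replicate 4 held 1592459 reads on genes, and the other 23 held between 9268041 and 12184749. Total RNA carried the keratins of PANC-1 at high counts (KRT8 at 25811 to 73810 reads per library, KRT19 at 7773 to 21915) along with the mesenchymal marker VIM (6750 to 13852), while the duct marker CFTR was at 0 in all 12 total libraries. The markers INS and SST (islet), PRSS1 (acinar), CD3E (T cell), PTPRC (pan-leukocyte) and DCN (stromal) were likewise at 0 in all 12. Of the other acinar markers, CELA3A had 2 to 14 reads per library and CPA1 0 to 3. GCG (islet) had 0 to 3, and of the other stromal markers COL1A1 had 6 to 41 and PDGFRA 0 to 12. The lysosomal and macrophage gene CD68 had 3861 to 8205 reads.

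The bases around the start codon are where the scanning 40S subunit, brought in by eIF4E and the cap, begins translation, and they are shown so that the cyclins and CDKs can be compared there. Each line runs from 9 bases before the start codon (ATG, in capitals) to 3 bases after it, from the GENCODE canonical transcript on GRCh38.
CCND1: gccccagccATGgaa
CCND2: gggctggccATGgag
CCND3: tgcccgagtATGgag
CCNE1: agccccatcATGccg
CDK2: tggcgcttcATGgag
CDK4: gatctgagaATGgct
CDK6: ccaggcggcATGgag
CDKN1A: ggaggcgccATGtca
CDKN1B: gggagaaagATGtca
A purine stood 3 bases before the ATG in 8 of these 9 genes, with CDK2 as the exception, and a G followed the ATG directly in 6 of 9, not in CCNE1, CDKN1A or CDKN1B. These are the 2 positions of the Kozak context that matter most. The context of CCNE2 is not reported here, and a link between these bases and TE was not tested.

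The positions in RefSeq for GRCh38 are chr11:69641156-69654474 for CCND1, chr12:4273762-4305353 for CCND2, chr6:41934933-42050035 for CCND3, chr19:29811991-29824312 for CCNE1, chr8:94880224-94896693 for CCNE2, chr12:55966830-55972789 for CDK2, chr12:57747727-57752310 for CDK4, chr7:92604921-92836573 for CDK6, chr6:36676463-36687332 for CDKN1A and chr12:12717368-12722369 for CDKN1B.

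In DMSO-treated cells, CDK4 was by far the most abundant of the 10 mRNAs. In these bulk samples, fewer cells in a phase of the cycle and less RNA of a gene per cell cannot be told apart, which holds for every value of these genes. The level of CDK4 per length in total RNA was 243 ± 63.1 CPM per kb of the canonical transcript (SD, n = 4), against 24.7 ± 4.25 for CDK2 and 0.582 ± 0.161 for CDK6. Among the cyclins, CCND3 (17.1 ± 2.58 CPM per kb) lay above CCND1 (11.9 ± 2.25), CCND1 above CCNE2 (5.03 ± 0.690) and CCNE2 above CCNE1 (2.16 ± 0.521), in each case with no overlap between the 4 plates of neighbours in this order. The ranges of CDK2, CDKN1A (20.8 ± 6.09) and CCND3 overlapped from each to the next, as did those of CDKN1B (0.645 ± 0.145), CDK6 and CCND2 (0.282 ± 0.446). In polysome-associated RNA the order changed in places. CCND1 (19.6 ± 4.63 CPM per kb) and CCND3 (18.0 ± 4.22) overlapped there, as did CCNE1 (3.82 ± 2.595), CCNE2 (2.97 ± 1.52) and CDK6 (2.05 ± 0.555).

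**Figure D1:**
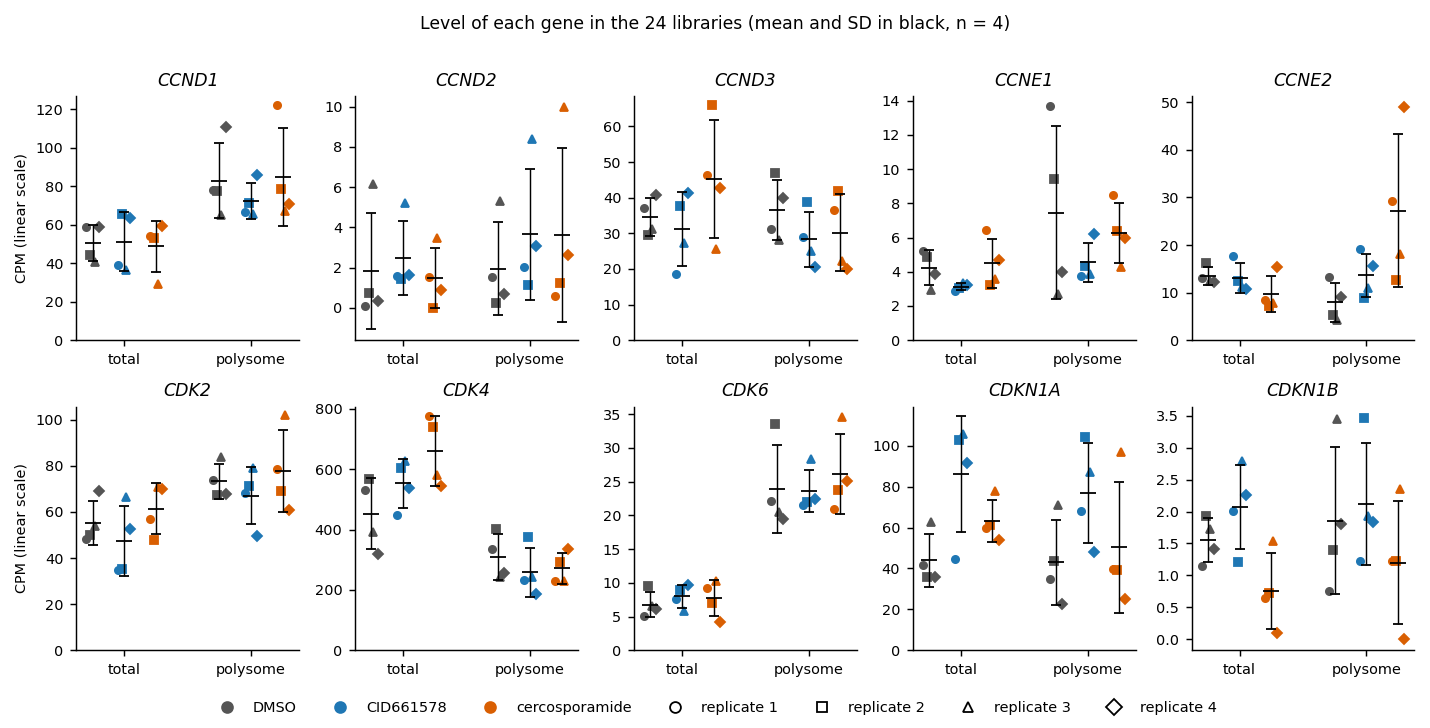
CPM (scaled read counts, linear scale from 0) of the 10 genes in each of the 24 libraries, for total and polysome-associated RNA, with treatment by colour, replicate by symbol and the mean and SD of 4 replicates in black. CCNE2 with cercosporamide ran from 12.6 to 49.0 CPM in polysomes against 4.29 to 13.2 with DMSO, while the CDK6 panel shows polysome values above total values on every plate.

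How far each mRNA was loaded on polysomes with DMSO was compared first. CDK6, the kinase partner of D cyclins that PANC-1 held at a low level, was the most strongly loaded of the tested genes, CCND1 and CDK2 were also enriched on polysomes, and CDK4 was depleted there. For CDK6, total RNA held 5.09, 9.46, 6.50 and 6.09 CPM on DMSO plates 1 to 4 and polysome RNA 22.2, 33.5, 20.5 and 19.5 CPM. The polysome values lay above every total value, and the ratio on the 4 plates was 4.36, 3.54, 3.16 and 3.20. On the log2 scale CDK6 was 1.82 ± 0.249 (SE) higher in polysome than in total RNA, with an adjusted p of 3.0e-06. For CCND1 the polysome/total ratio was 1.33, 1.76, 1.60 and 1.89 (0.71 ± 0.181 log2, adjusted p = 0.00285). CDK4 ran the other way on every plate, with ratios of 0.631, 0.709, 0.616 and 0.801 (-0.54 ± 0.181 log2, adjusted p = 0.0172).

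In all, 4 of the 7 genes were called higher in polysomes (CDK6, CCND1, CDK2 at 0.41 log2 and CCNE1 at 0.59) and 1 lower (CDK4), beside 56% of all genes called in this contrast, 26.4% higher and 29.6% lower. CCNE1 and CDK2 passed by less, with adjusted p-values of 0.118 and 0.0491, and the call of CCNE1 was lost without replicate 1 or 2 and that of CDK2 without replicate 1. CDK4 was not called when the libraries were normalized within each fraction (-0.27 log2, adjusted p = 0.227), a scaling under which the median of all genes rose to 0.26, nor without replicate 3. CCND3, at ratios of 0.841, 1.60, 0.903 and 0.980, and CDKN1A, at 0.839, 1.22, 1.13 and 0.628, were spread on both sides of equal loading and were not called. CCNE2 had the lowest loading of the tested genes with DMSO, at ratios of 1.02, 0.325, 0.344 and 0.742 and -0.88 ± 0.233 on the log2 scale, a description since these plates were part of its selection.

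**Figure D2:**
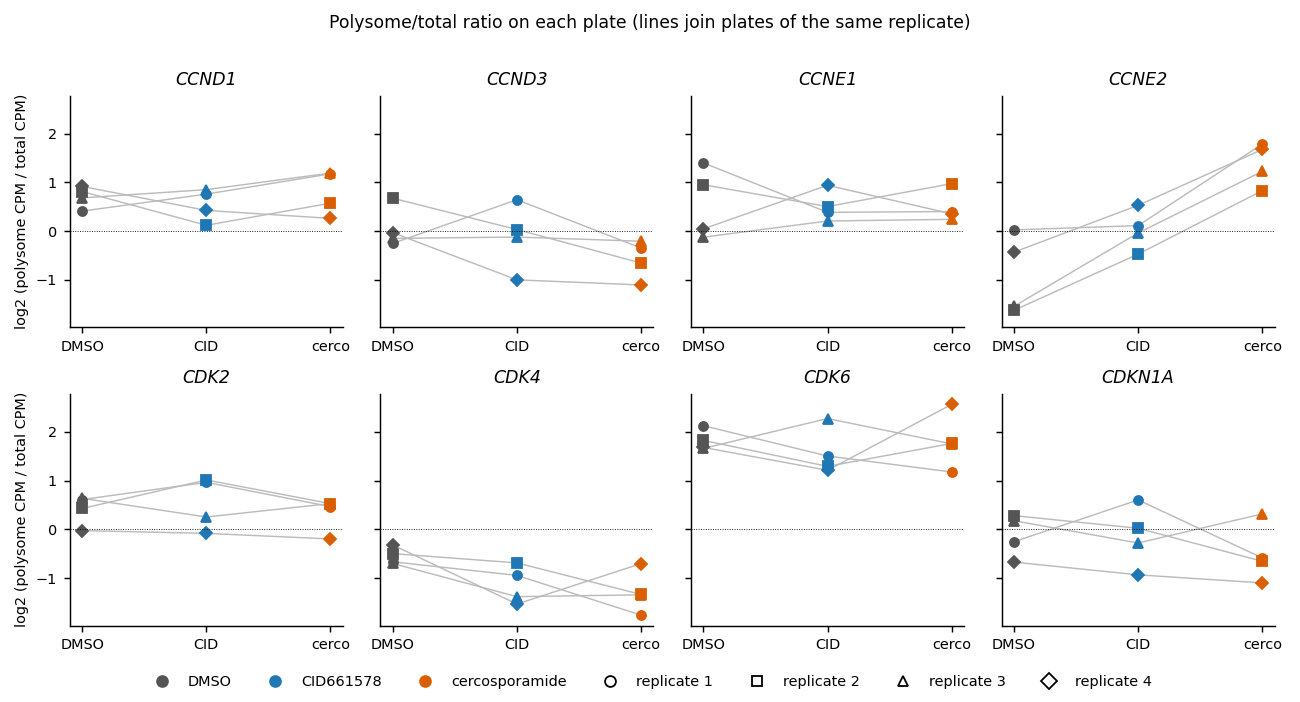
Polysome/total ratio (log2 of CPM ratios) of the 8 tested genes on each of the 12 plates, with treatment by colour and replicate by symbol, and lines joining plates of the same replicate. CCNE2 moved from below or near 0 with DMSO to between 0.83 and 1.79 with cercosporamide, CDK4 stayed below 0 on every plate, and CDK6 stayed above 0.

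Of the E cyclins, CCNE2 was the gene by which the group was picked, and its difference from DMSO lay mainly in the polysome fraction. Polysome-associated CCNE2 stood at 13.2, 5.25, 4.29 and 9.05 CPM with DMSO, at 19.1, 8.96, 10.9 and 15.6 CPM with CID661578, and at 29.3, 12.6, 18.0 and 49.0 CPM with cercosporamide. Within each of the 4 replicates the order was DMSO, then CID661578, then cercosporamide, although the groups overlapped. Total CCNE2 was 13.0, 16.2, 12.5 and 12.2 CPM with DMSO, 17.7, 12.4, 11.2 and 10.8 with CID661578, and 8.496, 7.11, 7.71 and 15.4 with cercosporamide, so that 3 of the 4 cercosporamide plates held less than any DMSO plate and the fourth did not.

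The polysome/total ratio of CCNE2 came to 1.08, 0.722, 0.975 and 1.44 with CID661578 and to 3.45, 1.78, 2.34 and 3.19 with cercosporamide. All 4 cercosporamide plates lay above the highest DMSO plate, and 2 of the 4 CID661578 plates did. The fitted change was 1.71 ± 0.243 in polysome RNA and -0.50 ± 0.297 in total RNA with cercosporamide, against 0.84 ± 0.238 and -0.06 ± 0.292 with CID661578. The resulting TE change with cercosporamide, 2.26 ± 0.330, ranked 23 of 12058 genes, with SMPDL3A (2.26) just ahead of it and CEP162 (2.25) just behind. Within each replicate the TE of CCNE2 was higher with cercosporamide than with DMSO by 1.76, 2.45, 2.77 and 2.103, and the fitted value was 2.32 without the plate of the shallow library, in which CCNE2 had 74 reads. With CID661578 the TE change was 0.91 ± 0.325, and replicate 1 contributed 0.09 against 1.15, 1.504 and 0.96 in the others.

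CCNE1, the paralog of CCNE2 that binds the same kinase, was called in TE with neither compound. Its polysome values were 13.7, 9.44, 2.71 and 4.01 CPM with DMSO, 3.77, 4.36, 3.87 and 6.21 with CID661578 and 8.51, 6.36, 4.26 and 5.96 with cercosporamide, and the groups overlapped. The TE change of CCNE1 was -0.10 ± 0.437 with cercosporamide (adjusted p = 0.905) and -0.08 ± 0.435 with CID661578 (adjusted p = 0.968), intervals wide enough to include -1.001 to 0.80 and -0.97 to 0.82 at 95% confidence. CCNE1 had a median of 47 reads per library and as few as 9, and its SE was the largest of the 8 tested genes. Set per kb of transcript, CCNE2 mRNA was 0.980 ± 0.542 times that of CCNE1 on polysomes with DMSO (SD, n = 4), 2.27 ± 0.981 times with CID661578 and 3.27 ± 1.95 times with cercosporamide. In total RNA this quotient was 2.41 ± 0.524, 3.07 ± 0.964 and 1.64 ± 0.593 in the same order. The quotient includes the change for which CCNE2 was picked.

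Of the D cyclins, CCND1 was called neither in a fraction nor in TE with either compound, while the TE of CCND3 was lower with cercosporamide. Polysome-associated CCND1 was 78.0, 77.7, 64.9 and 110.9 CPM with DMSO, 66.5, 71.0, 65.6 and 85.6 with CID661578 and 122.0, 78.7, 66.9 and 70.8 with cercosporamide, with overlap between all groups. Its TE change was -0.17 ± 0.255 with CID661578 (95% interval -0.69 to 0.36) and 0.10 ± 0.257 with cercosporamide (-0.43 to 0.63), with adjusted p-values of 0.855 and 0.8287. In both cases 2 replicates were higher and 2 lower than their DMSO plate. A fall of CCND1 TE by more than 0.69 with CID661578 or by more than 0.43 with cercosporamide lies outside these intervals.

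CCND3 had polysome/total ratios of 0.841, 1.60, 0.903 and 0.980 with DMSO and of 0.787, 0.636, 0.867 and 0.466 with cercosporamide. The ratio was lower in 4 of 4 replicates, 3 of the 4 cercosporamide plates fell below every DMSO plate, and the TE change was -0.64 ± 0.299 (adjusted p = 0.146). Neither fraction alone was called for CCND3 (total 0.33 ± 0.261, polysome -0.29 ± 0.202). This call was close to the threshold and was lost in 8 of 14 alternative analyses, among them the fits without replicate 2 (adjusted p = 0.563) or 4 (0.311) and without the plate of the shallow library (0.240), in which CCND3 had 30 reads. With CID661578 the CCND3 ratios were 1.56, 1.02, 0.920 and 0.501, and the TE change was -0.18 ± 0.294 (adjusted p = 0.870).

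CCND2 was near the limit of detection, and its highest values lay in replicate 3 under every treatment. The 6 libraries of replicate 3 held 27 to 110 reads of it (3.47 to 9.97 CPM), and the 18 other libraries held 0 to 35 (0 to 3.06 CPM). In a fit without the filter, CCND2 was 1.09 ± 0.365 higher in polysome RNA with CID661578 (adjusted p = 0.0914), with an increase in 4 of 4 replicates. That fit called 1138 of 28470 genes in this contrast, and CCND2 was called in no other. Its test had 170820 degrees of freedom for CCND2 and CDKN1B alike. The SE there thus rests on a spread shared over genes and not on that of CCND2 alone. The gene span of CCND2, introns included, shares 2423 bases with that of CCND2-AS1, an antisense RNA gene. By the counting settings, reads that overlapped exons of both genes were not counted.

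Among the kinases, the polysome/total ratio of CDK4 was lower with cercosporamide, with a larger fitted change in total than in polysome RNA. CDK2 and CDK6 were not called. Total CDK4 was 532.5, 568.7, 392.2 and 318.3 CPM with DMSO and 777.4, 738.3, 580.0 and 543.6 CPM with cercosporamide, and 3 of the 4 treated plates lay above all DMSO plates. Polysome-associated CDK4 was 336.0, 403.2, 241.7 and 255.1 CPM with DMSO and 230.1, 292.9, 229.0 and 334.3 CPM with cercosporamide, with overlap. The ratio on cercosporamide plates was thus 0.296, 0.397, 0.395 and 0.615, each below the lowest DMSO plate (0.616), the highest of them by a narrow margin.

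The TE change of CDK4 with cercosporamide was -0.74 ± 0.256 (adjusted p = 0.0490, lower in 4 of 4 replicates). The fits that left out replicate 1 (adjusted p = 0.176) or 2 (0.180) ended this call, and under an analysis of partial variance it was -0.22 (adjusted p = 0.718). The total RNA change was 0.56 ± 0.194 (adjusted p = 0.3002) and the polysome change -0.16 ± 0.192 (adjusted p = 0.592), so neither fraction was called by itself. Without replicate 4 the polysome change was -0.43 (adjusted p = 0.131) and without the plate of the shallow library -0.42 (0.118), past the threshold in both. With CID661578 the CDK4 ratios were 0.520, 0.621, 0.385 and 0.346, of which 3 lay below all DMSO plates, and the TE change was -0.59 ± 0.256 with an adjusted p of 0.512. Its level rests on many reads, between 505 and 7062 per library, but the gene spans of CDK4 and TSPAN31 share 2493 bases. Reads that overlapped exons of both genes were not counted.

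CDK2, the partner of cyclin E, had polysome/total ratios of 1.53, 1.35, 1.55 and 0.983 with DMSO, 1.95, 2.02, 1.19 and 0.945 with CID661578, and 1.38, 1.44, 1.44 and 0.873 with cercosporamide. Replicate 4 was the lowest of its group under each treatment. The TE change of CDK2 was 0.12 ± 0.237 with CID661578 and -0.08 ± 0.238 with cercosporamide (adjusted p = 0.894 and 0.857), with a 95% interval of -0.57 to 0.41 for cercosporamide. CDK6 stayed above equal loading on all plates, with ratios of 2.83, 2.45, 4.83 and 2.31 with CID661578 and 2.26, 3.39, 3.37 and 5.90 with cercosporamide. With CID661578, 3 plates lay below the lowest DMSO plate and 1 above the highest. With cercosporamide, 1 plate lay below and 1 above. Its TE change was -0.25 ± 0.345 and -0.04 ± 0.350 (adjusted p = 0.838 and 0.949).

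Of the inhibitors, CDKN1A mRNA was higher with CID661578 in both fractions, and its TE was not called. This gene is the classical transcriptional target of p53. Total CDKN1A was 41.6, 35.7, 62.9 and 35.95 CPM with DMSO and 44.8, 102.6, 105.7 and 91.3 CPM with CID661578. Polysome-associated CDKN1A was 34.9, 43.4, 71.2 and 22.6 CPM with DMSO and 68.0, 104.2, 87.1 and 47.9 CPM with CID661578. It was higher in 4 of 4 replicates in both fractions, although the groups overlapped, since 3 of the 4 treated plates lay above the highest DMSO plate in total RNA and 2 of 4 in polysome RNA.

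The change of CDKN1A with CID661578 was 0.95 ± 0.232 in total RNA (adjusted p = 0.144) and 0.93 ± 0.205 in polysome RNA (adjusted p = 0.0138), and its TE change was -0.03 ± 0.272 (adjusted p = 0.978). It was the only 1 of the 7 genes called in either fraction with CID661578, where 0.448% of all genes were called in total RNA (0.315% higher) and 10.1% in polysome RNA (6.16% higher). Called in the same direction in both fractions with no TE call were 42 genes, CDKN1A among them. The total RNA call ended when replicate 2, 3 or 4 was left out (adjusted p = 0.579, 0.199 and 1.0), without the plate of the shallow library (0.262) and without the replicate terms (1.0). The polysome call was lost only without the replicate terms (0.493). With cercosporamide, total CDKN1A was 59.9, 61.5, 77.9 and 53.8 CPM (0.54 ± 0.229, adjusted p = 0.388, higher in 4 of 4 replicates) and polysome CDKN1A was 39.9, 39.1, 97.0 and 25.2 CPM (0.19 ± 0.209, adjusted p = 0.562).

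CDKN1B was barely detected, at 0 to 43 reads per library. Its mean in total RNA (± SD, n = 4) was 1.56 ± 0.349 CPM on DMSO plates, 2.07 ± 0.659 on CID661578 plates and 0.754 ± 0.595 on cercosporamide plates, and under cercosporamide it lay below its DMSO plate in 4 of 4 replicates. A fit without the filter gave -1.23 ± 0.563 for that comparison, with an adjusted p of 0.641, and no call in any contrast. CDKN2A and CDKN2B, the INK4 inhibitors of CDK4 and CDK6, had 0 reads among 248113363 in the 24 libraries together, which allows a level of up to 0.0121 CPM, counting error only.

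**Figure D3:**
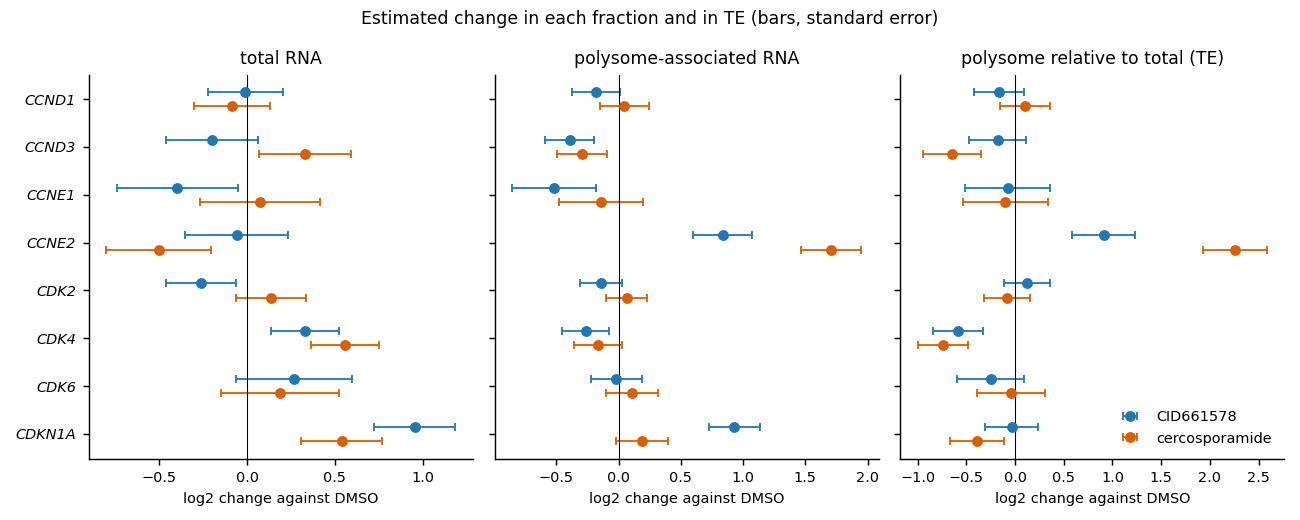
Log2 change against DMSO of the 8 tested genes in total RNA, in polysome-associated RNA and in TE, with bars for the standard error and colour for the compound. CDKN1A with CID661578 is near 0.9 in both fractions and near 0 in TE, while CDK4 and CCND3 with cercosporamide lie below 0 in TE.

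Over the 7 genes, TE was called for 0 with CID661578, where 0.207% of all genes were called, and for 2 with cercosporamide, CDK4 and CCND3, both lower, where 28.4% were called and 12.6% were lower. The 2 calls among 7 genes are about what the share of 28.4% would give, so they set these genes apart from no others. With CID661578 CDK4 was the only 1 of the 7 with an unadjusted p under 0.05, as had 1069 of all genes, and DESeq2 called 0 of 7 as well, with no adjusted p for CCNE1. The median TE change over the 7 was -0.17 with CID661578 (all genes 0.03) and -0.10 with cercosporamide (all genes -0.00). For both called genes the fitted change was of larger size in total than in polysome RNA, though neither fraction was called and for CCND3 the sizes (0.33 ± 0.261 and -0.29 ± 0.202) differed by less than their errors. In total RNA with cercosporamide 0 of 7 were called, beside 0.381% of all genes, and 2 of 7 had an unadjusted p under 0.05, as did 1360 genes. In polysome RNA with cercosporamide 0 of 7 were called although 32.2% of all genes were, and 0 of 7 had an unadjusted p under 0.05 against 3925 genes. DESeq2 called 0 of 7 in either fraction with cercosporamide.

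The compounds were also compared directly with each other in TE for the 7 genes, at 40 µM for CID661578 and 5 µM for cercosporamide, doses that differ. By edgeR's quasi-likelihood test and by DESeq2, 0 of 7 were called, beside 15.5% of all genes, and 0 of 7 had an unadjusted p under 0.05, as 2647 genes did. The difference, CID661578 minus cercosporamide, was largest for CCND3 at 0.47 ± 0.299 (95% interval -0.15 to 1.08) and CDKN1A at 0.36 ± 0.276 (-0.21 to 0.93). For CDK4 it was 0.15 ± 0.257 (-0.38 to 0.68), an interval that spans both an equal fall in TE and a larger fall under either compound. The CCND1 difference was -0.27 ± 0.257 (-0.80 to 0.26). For CCNE2 the values side by side were 0.91 with CID661578 and 2.26 with cercosporamide.

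The transcripts of these genes differ in features that the choice of genes did not use. CCNE2 has the transcript with the lowest GC content of the 10, 34.6%, which only 1.15% of the 10085 tested protein-coding genes with an annotation undercut (median 47.6%). Its 5′ UTR is short, 51 nt, with 52.9% GC (percentile 9.75). CCNE1 and CCND3 stand at the other end, with 5′ UTRs of 82.3% and 80.5% GC (percentile 92.2 for CCND3). CDK6 carries a 3′ UTR of 10219 nt (percentile 99.0) and a transcript of 39.7% GC. The remaining genes have transcript GC contents from 45.5% (CCND2) to 57.3% (CDKN1A), and CCND3 has 59.97%.

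Across all genes the TE change moved with transcript GC content under both compounds. The 337 tested genes below 36% GC, the bin of CCNE2, had a median TE change of 0.79 with cercosporamide and 0.48 with CID661578, and the 1410 genes of at least 60% GC had medians of -0.40 and -0.46. CCNE2 lay above its bin, whose upper quartile was 1.204 with cercosporamide and 0.68 with CID661578. CDK6 lay below the lower quartile of its bin of 36 to 40% GC with both compounds (0.22 and 0.12). With each library's GC trend removed, the TE change of CCNE2 was 1.44 with cercosporamide and 0.47 with CID661578, and its polysome change 0.98 and 0.33. In that setting the TE change of CCND3 with cercosporamide was -0.31 with an adjusted p of 0.440, no longer called. For CDK4 with cercosporamide it was -0.51 with an adjusted p of 0.1495, a call kept just under the threshold of 0.15. Whether GC content of the RNA or its handling in library preparation carries this trend was not tested.

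The genes whose polysome/total ratio followed that of CCNE2 most closely over the 12 plates, among 9637 genes with a mean of at least 4 CPM, were SEPTIN7 (Pearson r of 0.978), HSPA4 (0.976), PHAX (0.976), NUF2 (0.976) and DNTTIP2 (0.974). Their TE changes with cercosporamide were between 1.54 and 2.18. The 7 other G1/S genes had r between -0.63 (CDK4 and CCND3) and 0.13 (CCND1). The plates share treatments and library pairs, so these values describe likeness over 12 plates and no more.

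Around the 10 genes, 35 further genes of the G1/S pathway were examined, of which 31 had reads in every library. CDKN1C, CDKN2A, CDKN2B and CCNA1 did not. With cercosporamide the TE of 6 was called higher and that of 1 lower, beside 28.4% of all genes called, so that the 7 calls are no more than that share would give, and the median over the 31 was 0.18 (all genes -0.00). Higher were the pocket proteins RB1 (1.28, adjusted p = 0.0102) and RBL1 (1.38, 0.0373), the substrates of these kinases, along with cyclin A2 (CCNA2, 0.80, 0.0343), the CDK-activating kinase subunits CDK7 (0.73, 0.0551) and CCNH (0.60, 0.0882) and the SCF ubiquitin ligase scaffold CUL1 (0.91, 0.0305). CKS1B, which helps the SCF ligase recognise CDKN1B, was lower (-0.84, 0.0187). With CID661578, 0 of 31 were called in TE by edgeR's quasi-likelihood test or by DESeq2 and 0 had an unadjusted p under 0.05, with a median of 0.20. With the GC trend removed, the calls of RB1, RBL1, CCNA2, CDK7 and CCNH were lost and those of CUL1 and CKS1B were kept. CKS1B alone kept its call in all 14 alternatives. CUL1 lost it without replicate 2 and under partial variance, RBL1 and CCNA2 without replicate 1 or 2 and under partial variance as well, and CCNH in 5 of 14.

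In TE, 4 of the 31 were called between the compounds, beside 15.5% of all genes. CKS1B (1.03) and RBX1 (0.72), the RING subunit of the SCF ligase, were higher with CID661578 than with cercosporamide, and RB1 (-0.91) and CUL1 (-0.75) lower. The call of CKS1B was kept in all 12 alternatives, while RB1 lost it in 5 (among them without replicate 1, 2 or 3), CUL1 in 4 (among them without replicate 1 or 2) and RBX1 in 3 (without replicate 1, 2 or 3).

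In single fractions, 1 of the 31 was called in total RNA with CID661578 (0.448% of all genes), 6 in polysome RNA with CID661578 (10.1%) and 8 in polysome RNA with cercosporamide (32.2%), the last no more than the share over all genes. SKP2, the F-box protein that directs CDKN1B and CDKN1A to degradation, fell by 1.35 on the log2 scale in total RNA with CID661578 (adjusted p = 0.0135) and by 0.90 in polysome RNA, the only 1 of the 31 called in total RNA. In polysome RNA with CID661578, E2F2 (-1.20), the CDK phosphatase CDC25A (-0.94) and the F-box cyclin CCNF (-1.11, adjusted p = 0.00650) were also lower, and RB1 (0.59) and the CDK-activating kinase subunit MNAT1 (0.69) higher. In polysome RNA with cercosporamide, RB1 (1.06), RBL1 (0.76), CDK7 (0.54), CCNH (0.80), MNAT1 (0.65) and CUL1 (0.49) were higher, and the INK4 inhibitors CDKN2C (-1.12, adjusted p = 0.00779) and CDKN2D (-0.91, adjusted p = 0.140) lower. In total RNA with cercosporamide 0 of 31 were called by edgeR's quasi-likelihood test or DESeq2, and 3 had an unadjusted p under 0.05. The SKP2 calls and all polysome calls with CID661578 were lost without the replicate terms, and SKP2 also lost both without replicate 4. Of these 15 calls in single fractions, those of RB1, CCNH and CDKN2C with cercosporamide were kept in all 12 alternatives, and the call of CCNF with CID661578 in 11. Each of the others was lost when at least 1 of the replicates was left out.

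**Figure D4:**
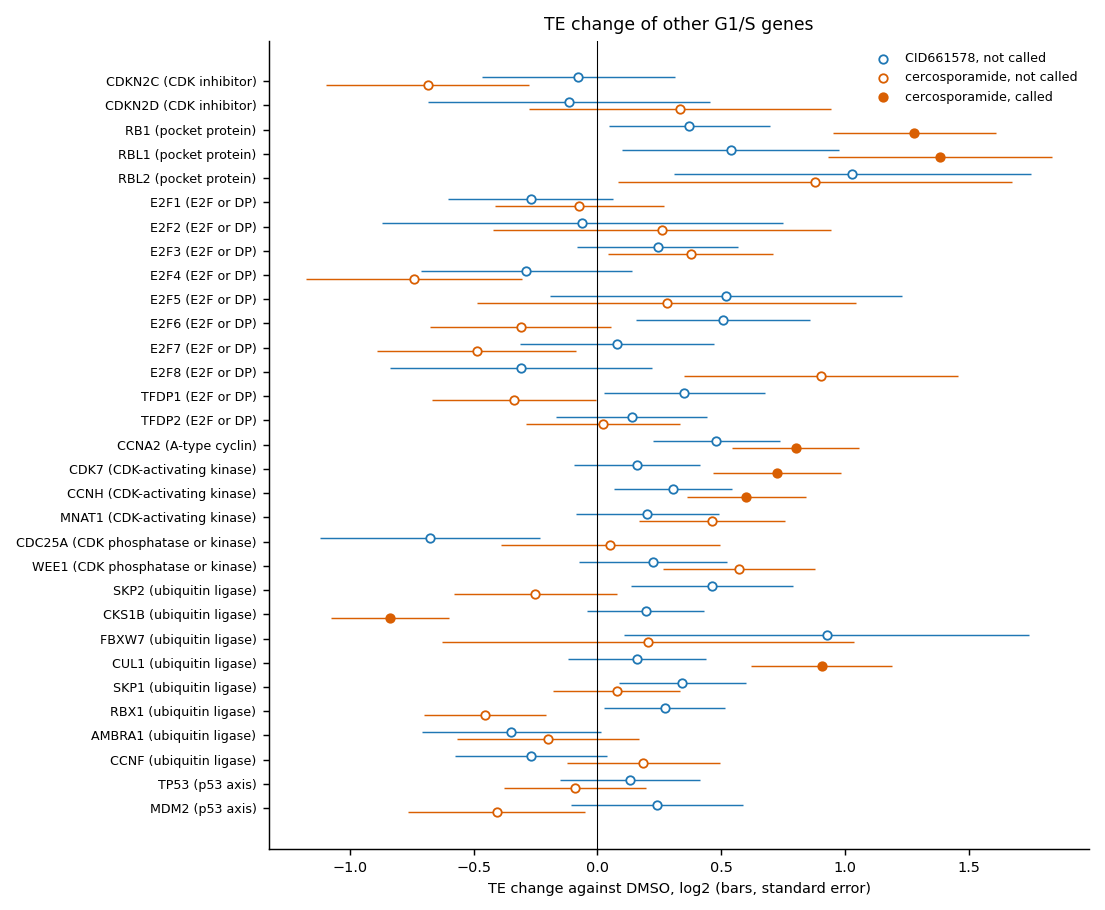
TE change against DMSO (log2, bars for the standard error) of the 31 other G1/S genes tested, grouped by role, with filled points for genes called at an adjusted p below 0.15 and a change above 1.2-fold. Filled points appear for cercosporamide alone, 6 above and 1 below 0.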

How the data were processed

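PANC-1 cells were treated with DMSO, CID661578 or cercosporamide on 4 plates each, and total cytosolic and polysome-associated RNA of the 12 plates were sequenced from Smart-seq2 libraries. After removal of rRNA reads with BBDuk, the authors aligned to hg38 using HISAT2 and assigned reads to RefSeq genes in featureCounts at its default settings, which ignore the strand and leave out reads that overlap several genes. The gene spans of CCND2, CCND3, CCNE2, CDK4, CDK6 and CDKN1A, introns included, overlap other genes. CCNE2 shares 1523 bases with INTS8 and 895 with NDUFAF6, and CDKN1A shares 951 with DINOL. The part of these bases that lies in exons was not determined. The counts deposited by the authors, for 54583 genes and 24 libraries, are not normalized. With no spike-in, all changes are relative to the other genes. Depth per library lay between 1592459 and 12184749 reads and limits genes of low count.

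As in the study, a gene needed at least 1 read in every library, which 12058 genes had. TMM normalization used all libraries together, and the test was edgeR's quasi-likelihood test (edgeR 4.0.16, R 4.3.3). For TE, the model held a term per plate, a term per replicate in the polysome fraction and the treatment within that fraction (residual degrees of freedom 6, prior 18.25). Single fractions were fitted with treatment and replicate over 12 libraries. The thresholds, an adjusted p of 0.15 and 1.2-fold for TE, are those of the study, whose package anota2seq was not available. With CID661578 this test called 25 genes in TE, fewer than the mRNAs that the paper reports as translationally regulated by both compounds. The counts called here are therefore not those of the study, and a gene not called here could be called there. The replicate was the batch in the study's methods, and deviations of same-numbered treated and DMSO libraries correlated above r = 0.1 in 13 of 16 comparisons. No library was a copy of another in its group (lowest chi-square per degree of freedom 14.9 over 36 pairs). The scripts were tested on simulated data. GC contents and lengths came from the canonical transcripts of GENCODE v44, which matched 39020 symbols of the table and not 15563.

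Named are the 10 genes, the genes called among the other listed pathway genes, and the 5 genes most like CCNE2 in polysome/total ratio. The genes and lists were chosen with earlier results of these data known. Alternatives were no replicate terms, DESeq2 1.42.0, edgeR with the size factors of DESeq2, normalization within each fraction by TMM, filterByExpr, no filter, removal of each library's GC trend (a GC value was had for 96.0% of tested genes), each replicate left out, the plate of the shallow library left out, an analysis of partial variance, a fit of DMSO with a single compound and an adjusted p of 0.05.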

Additional observations from a re-analysis of the deposited data

Results flagged for a closer look

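In 88 groups of 4 values (each gene's total CPM, polysome CPM and polysome/total ratio under each treatment), 7 had a replicate far from the other 3 by Dixon's criterion, where chance flags about 1 in 20. Total CCND2 in replicate 3 was 6.16 CPM with DMSO, against 0.104 to 0.712 in the others, and 5.21 CPM with CID661578, against 1.43 to 1.62. The CCND2 polysome/total ratio of DMSO replicate 1 was 14.5, over a total library with 1 read of the gene. Total CCNE2 was 15.4 CPM in cercosporamide replicate 4, against 7.11 to 8.496 in the others. The CDK2 polysome/total ratio of cercosporamide replicate 4 was 0.873, against 1.38 to 1.44, and the polysome library of that plate is the shallow one. Polysome-associated CDK6 with CID661578 was 28.3 CPM in replicate 3, against 21.6 to 22.5. The CDKN1B polysome/total ratio of CID661578 replicate 2 was 2.87, against 0.610 to 0.811, at the low counts of this gene.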

How the results depend on the processing

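The DMSO polysome enrichment of CDK6 and CCND1 kept its direction and its calls in all alternatives run. The values of CCNE2 in TE and in polysome RNA also kept their direction. CCNE2 was picked for its change in these same libraries, so this is a description and no test of it. Of the 7 tested genes, the number called in TE with cercosporamide fell from 2 to 1 without the replicate terms, with no filter, with the GC trend removed (replicate block kept), in the fit of DMSO with a single compound and at an adjusted p of 0.05, and to 0 under partial variance. It ranged from 0 to 2 with replicates left out, 0 without replicate 2 and 1 without replicate 1, replicate 4 or the plate of the shallow library. Leaving out replicates moved the median of the 7 with cercosporamide between -0.34 and -0.12 in TE, between 0.054 and 0.41 in total RNA and between -0.15 and 0.057 in polysome RNA. Among the 7 genes, leaving out the replicate block changed no other calls than those of CDKN1A with CID661578 (polysome 0.84, adjusted p = 0.493, and total 0.97, adjusted p = 1.0, each without the block) and of CCND3 (TE -0.61, adjusted p = 0.222). With the GC trend removed, CDK4 in total RNA with cercosporamide was called (0.50, adjusted p = 0.0952), as was CDKN1A in the DMSO polysome contrast (-0.28, adjusted p = 0.132). The causes of these shifts were not tested.

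Signs turned for values that were not called. With the GC trend removed, the TE change was 0.17 for CCND3 and 0.20 for CDKN1A with CID661578 and 0.12 for CCNE1 with cercosporamide, and the difference between compounds was -0.16 for CCNE1, -0.031 for CDK4 and 0.12 for CDK6. In the same setting CCND3 was -0.18 in the DMSO polysome contrast, CCND1 0.052 in total RNA with CID661578, and CCNE1 0.015, CDK4 0.012 and CDK6 -0.33 in polysome RNA with cercosporamide. Under partial variance the TE change was 0.046 for CCNE1, -0.12 for CDK2 and 0.72 for CDKN1A with CID661578, and 0.054 for CDK2, 0.12 for CDK6 and 0.053 for CDKN1A with cercosporamide. TMM within each fraction put CDKN1A in the DMSO polysome contrast at 0.16, no filter put it at 0.0085, and without the replicate terms CCND1 in total RNA with CID661578 was 0.018. In polysome RNA with cercosporamide, CCND1 was -0.021, -0.028 and -0.067 and CDK2 -0.0010, -0.012 and -0.053 with DESeq2 size factors, filterByExpr and no filter, and CDK6 was -0.0031 with no filter.

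With replicates left out, the TE change with CID661578 ranged from -0.34 to 0.0067 for CCND1, -0.53 to 0.073 for CCND3, -0.42 to 0.26 for CCNE1, -0.031 to 0.26 for CDK2 and -0.32 to 0.075 for CDKN1A. With cercosporamide it ranged from -0.12 to 0.30 for CCND1, -0.28 to 0.24 for CCNE1 and -0.34 to 0.26 for CDK6, and between the compounds from -0.14 to 0.19 for CCNE1, -0.067 to 0.50 for CDK4 and -0.45 to 0.15 for CDK6. In the DMSO polysome contrast CCND3 ranged from -0.14 to 0.22 and CDKN1A from -0.25 to 0.16. In total RNA the range was -0.20 to 0.17 for CCND1 and -0.35 to 0.033 for CCND3 with CID661578, and -0.19 to 0.025 for CCND1, -0.020 to 0.29 for CCNE1 and -0.041 to 0.41 for CDK6 with cercosporamide. In polysome RNA it was -0.19 to 0.20 for CDK6 with CID661578, and -0.18 to 0.19 for CCND1, -0.39 to 0.12 for CCNE1, -0.053 to 0.075 for CDK2 and -0.15 to 0.34 for CDK6 with cercosporamide. Counts of CCND2, CDKN1B and CCNE1 were too low to resolve changes of the size seen for CCND3.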
